A study of Mus musculus with 18 samples.

Results

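The 10 genes followed here in mouse jejunum after irradiation belong to insulin and insulin-like growth factor (IGF) signalling and to its FOXO branch: Insr, Igf1r, Irs1, Irs2, Foxo1, Foxo3, Pik3ip1, Fbxo32, Sesn3 and Ccng2. They were listed by name as signalling genes and as FOXO targets that mark fasting, and matched by symbol to Ensembl gene IDs. The list was chosen with earlier results of these data known. All 10 of 10 were found among 54532 gene IDs in the count table, and all 10 were among the 16257 genes tested. The FLASH group (7 libraries) came from C57BL/6 mice given 15 Gy to the whole abdomen in 1 fraction at an ultra-high dose rate. The CONV group (5 libraries) received the same 15 Gy at a conventional rate, and the control group (6 libraries) was left unirradiated. All mice were 8 to 12 weeks old and fed freely, and whole jejunum of the irradiated mice was taken 16 h after the dose. Whole jejunum holds epithelium, lamina propria, vessels, nerves and muscle, so a lower level can come from fewer cells of a type or from less RNA per cell, which cannot be told apart here. The labels do not say that each library came from its own mouse, and p-values therefore measure the spread between these libraries.

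Insulin and the IGFs bind receptor tyrosine kinases on the cell surface, which phosphorylate the docking proteins IRS1 and IRS2. These recruit phosphoinositide 3-kinase (PI3K), which activates the kinase AKT. AKT phosphorylates the FOXO transcription factors and keeps them out of the nucleus. When insulin is low, as in fasting, FOXO proteins enter the nucleus and raise genes of gluconeogenesis, proteolysis and cell cycle arrest, along with the insulin receptor and IRS2 genes themselves in several tissues. In the small intestine, insulin and IGF signals are known to promote epithelial growth after feeding and after injury.

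FOXO proteins bind the core GTAAACA and the related insulin response core CAAAACA. Both were searched on both strands of RefSeq promoter windows (GRCm38.p6, 250 bases before to 50 bases after the start), which were found for 8 of the 10 genes, not for Insr and Fbxo32. GTAAACA was in 0 of the 8 windows and in 3.6% of 32851 windows of the same length. CAAAACA was in 3 of the 8, those of Irs1, Irs2 and Ccng2, and in 6.3% of all windows. The 3 windows are shown because they hold the match, with its letters in capitals, on the gene's own strand, 5′ to 3′. In Irs1 and Irs2 the motif lies on the opposite strand and therefore reads TGTTTTG. The Irs1 window is chr1:82291390-82291689 (minus strand), with matches beginning 111 and 32 bases before the start. The Irs2 window is chr8:11008880-11009179 (minus strand), with its match 37 bases before the start, and the Ccng2 window is chr5:93267323-93267622 (plus strand), with its match 16 bases before. The start is the RefSeq one and differs from the end of the gene coordinates given below. The Irs2 window lies wholly outside those coordinates (10984681 to 11008458), and the Ccng2 window lies wholly inside its own (93267257 to 93276231). A match is a run of letters and not a shown binding site.
Irs1: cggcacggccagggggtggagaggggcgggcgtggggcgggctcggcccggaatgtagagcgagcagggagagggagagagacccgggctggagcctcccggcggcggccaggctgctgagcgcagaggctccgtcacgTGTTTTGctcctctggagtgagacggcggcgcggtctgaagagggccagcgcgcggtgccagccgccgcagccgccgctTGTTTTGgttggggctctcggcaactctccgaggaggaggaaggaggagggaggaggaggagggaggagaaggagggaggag
Irs2: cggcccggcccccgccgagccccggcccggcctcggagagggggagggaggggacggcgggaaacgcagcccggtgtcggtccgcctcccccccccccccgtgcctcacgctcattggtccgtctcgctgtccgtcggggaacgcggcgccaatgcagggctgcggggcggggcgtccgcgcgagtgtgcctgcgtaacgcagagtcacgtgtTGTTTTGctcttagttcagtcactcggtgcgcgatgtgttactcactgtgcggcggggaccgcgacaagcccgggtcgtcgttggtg
Ccng2: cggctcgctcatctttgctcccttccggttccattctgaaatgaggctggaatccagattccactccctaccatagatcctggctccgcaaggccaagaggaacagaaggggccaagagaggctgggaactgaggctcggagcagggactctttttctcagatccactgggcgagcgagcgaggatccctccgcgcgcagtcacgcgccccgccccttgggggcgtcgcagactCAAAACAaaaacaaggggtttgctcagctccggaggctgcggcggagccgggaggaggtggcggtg

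Library totals were 23.1 to 30.2 M estimated counts in FLASH, 19.9 to 27.0 M in CONV and 24.3 to 27.8 M in control. Libraries differed within every group in how expression varied with transcript length. The slope of log2 expression on log2 transcript length was 0.04 ± 0.20 in FLASH (SD, n = 7), -0.18 ± 0.21 in CONV (n = 5) and 0.11 ± 0.28 in control (n = 6). It was lowest in FLASH 1 (-0.34), CONV 6 (-0.43) and control 6 (-0.41). This bears on the 10 genes because 8 of them have a longest transcript of at least 6 kb, where the median of 14478 tested protein-coding genes is 3.37 kb. Each call on the 10 genes is therefore also given from a fit with an offset that removes, library by library, the trends with length and GC content. The part of the length trend in the uncorrected differences was not tested. As a check of the labels, Cdkn1a and Phlda3, both p53 targets, and 8 other p53 targets rose in both irradiated groups against control, 10 of 10 in each. Summed enterocyte markers (10 genes) were 57400 to 98400 CPM in FLASH, 53700 to 95500 CPM in CONV and 18500 to 40300 CPM in control, and markers of crypts (8 genes) were 143 to 243, 127 to 287 and 825 to 1380 CPM in the same groups. The enterocyte sum is mostly Apoa4, Apoa1 and Fabp2. Against control, 7 of its 10 genes rose in FLASH and 5 in CONV, while Vil1 (-0.23) and Anpep (-0.20) were among those that did not pass in CONV. The crypt sum in control is mostly Olfm4, with a mean of 762 CPM in control, 49.5 in FLASH and 31.2 in CONV. Against control, 8 of the 8 crypt genes fell in FLASH and 5 in CONV, where Ascl2, Axin2 and Rgmb did not pass. CPM are the estimated counts divided by TMM-scaled library totals.

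In FLASH against CONV, the 2 dose rates at the same dose, 6 of the 10 genes rose and 0 fell at an adjusted p of 0.05. The 6 were Igf1r, Irs1, Irs2, Foxo1, Foxo3 and Pik3ip1. Of all 16257 genes tested, 9.88% rose and 9.91% fell. The median log2 fold change was 1.03 over the 10 genes and -0.02 over all genes. Because the 10 genes were chosen with earlier results of these data known, this contrast with all genes is not a test of the list. Irs2 and Foxo1, 2 of the 10, were higher in every FLASH library than in any CONV library, which held for 4.08% of all genes, while 4.45% were lower in every FLASH library, 0 of the 10 among them. Among 2042 tested protein-coding genes with a transcript of at least 6 kb, 15.5% rose and 3.38% fell in the same comparison. Against control, 1 of the 10 rose in FLASH (Irs2) and 1 fell (Sesn3), against 16.7% and 21% of all genes. CONV against control had 0 that rose and 4 that fell (Igf1r, Irs1, Foxo1 and Sesn3), against 10.2% and 12% of all genes. Of the long protein-coding genes, 10.5% rose and 21.9% fell in FLASH against control, and 2.84% rose and 22.5% fell in CONV against control. FLASH against control and FLASH against CONV share the FLASH libraries, and both control comparisons share the control libraries.

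**Figure D1:**
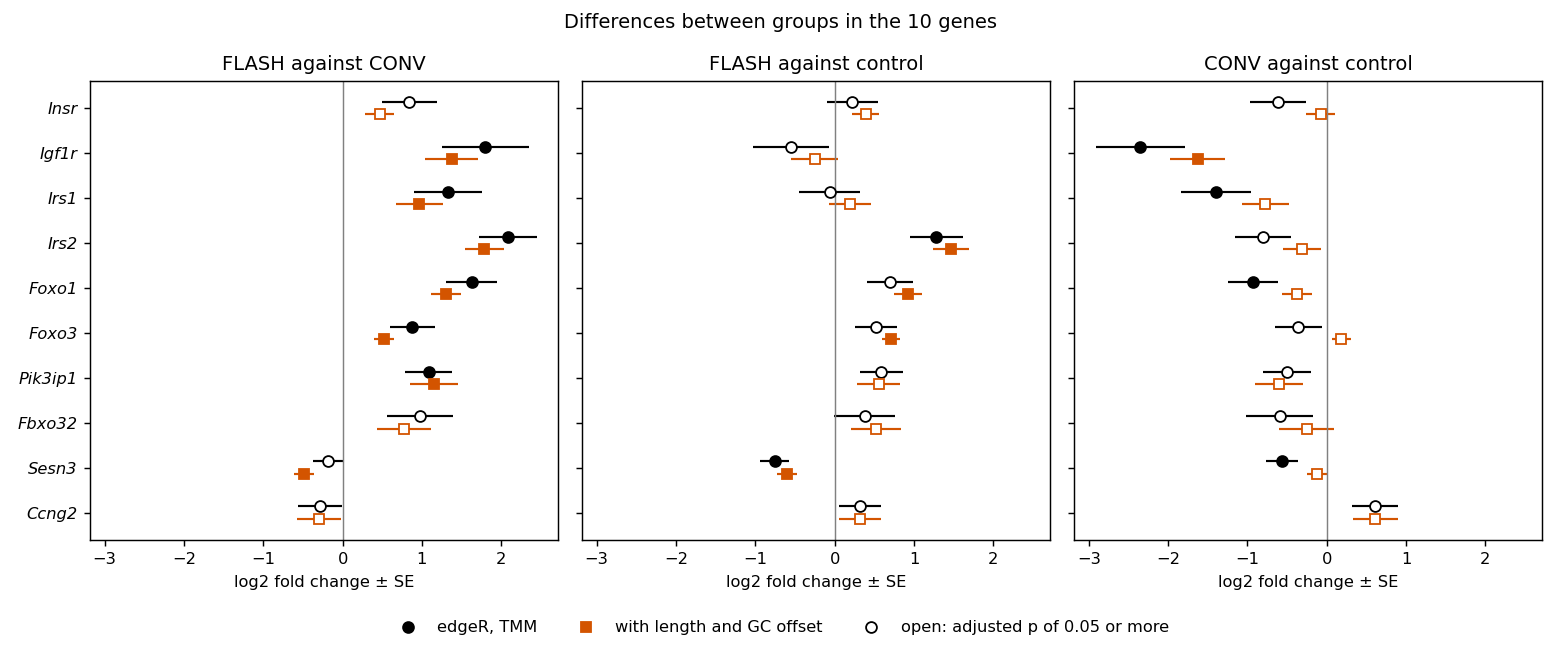
Log2 fold changes of the 10 genes with bars of 1 standard error in the 3 comparisons, from edgeR with TMM factors (black circles) and with the length and GC offset (orange squares), filled where the adjusted p was under 0.05. In FLASH against CONV 6 circles are filled, all right of 0, with Irs2 farthest at 2.09.

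Per kb of transcript, the mean level over 18 libraries was highest for Ccng2, at 37.8 CPM per kb. Foxo3 followed at 7.90, Irs2 at 6.67, Insr at 4.74 and Foxo1 at 4.53 CPM per kb. Fbxo32 had 3.09, Pik3ip1 2.32 and Sesn3 2.20 CPM per kb. The lowest were Igf1r at 0.826 and Irs1 at 0.211 CPM per kb, with as few as 18 and 9 estimated counts in a library.

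**Figure D2:**
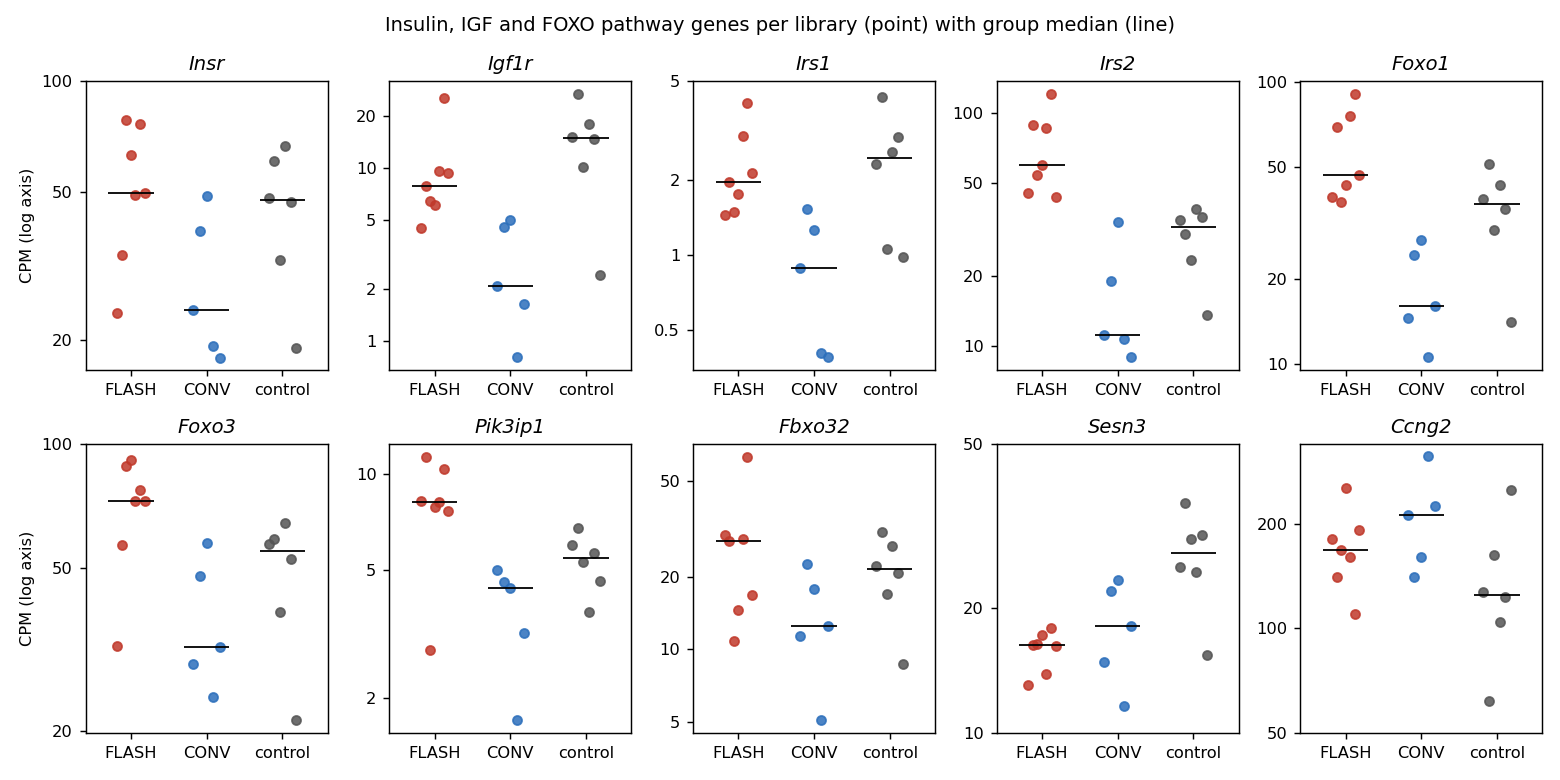
CPM of each of the 10 genes in every library on a log axis that differs between panels, with FLASH, CONV and control from left to right, each point 1 library and each line the group median. For Irs2 and Foxo1 all 7 FLASH points lie above all 5 CONV points.

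The receptor genes come first in the pathway. Insr encodes the insulin receptor (ENSMUSG00000005534, chromosome 8, 3122061 to 3279617 in mm10, minus strand). It had 23.6, 49.9 and 78.6 CPM as lowest, median and highest in FLASH, 24.0, 39.2, 49.0, 19.2 and 17.8 CPM in CONV 2, 3, 5, 6 and 7, and 18.9, 47.7 and 66.9 CPM in control. The 3 groups overlapped. Insr did not pass in any comparison: the log2 fold change was 0.84 ± 0.34 (SE) in FLASH against CONV (95% interval 0.12 to 1.56, adjusted p = 0.0893), 0.22 ± 0.32 in FLASH against control (adjusted p = 0.610) and -0.62 ± 0.35 in CONV against control (adjusted p = 0.198). Without CONV 5 it passed in FLASH against CONV (1.09, adjusted p = 0.0428), and without FLASH 1 likewise (0.97, adjusted p = 0.0417). With the offset the difference was smaller, at 0.47 ± 0.18, and did not pass (adjusted p = 0.0663).

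Igf1r, the receptor for IGF1 and IGF2 (ENSMUSG00000005533, chromosome 7, 67952827 to 68233668, plus strand), had the largest fall of the 10 in CONV against control. It had 4.50, 7.86 and 25.2 CPM as lowest, median and highest in FLASH, and 2.09, 4.53, 4.99, 0.813 and 1.63 CPM in CONV 2, 3, 5, 6 and 7. Control libraries had 2.41, 14.8 and 26.6 CPM in the same order as FLASH. CONV overlapped FLASH by the lowest FLASH library, and overlapped control by control 6 alone, the next lowest control library having 10.1 CPM. Igf1r fell in CONV against control by 2.35 ± 0.56 on the log2 scale (0.196-fold, adjusted p = 0.00754), and still with the offset (-1.63 ± 0.34, adjusted p = 0.00249). It was higher in FLASH than in CONV by 1.80 ± 0.54 (3.49-fold, adjusted p = 0.0263), and by 1.38 ± 0.34 with the offset (adjusted p = 0.00672), which left no overlap. FLASH 7 alone reached 25.2 CPM, the next library having 9.59. Without FLASH 7 the difference was 1.37 and missed the threshold (adjusted p = 0.0657), as it did without CONV 2 (0.0648), CONV 6 (0.0611) or CONV 7 (0.0715). Igf1r did not pass in FLASH against control (-0.55 ± 0.48, adjusted p = 0.386).

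Irs1 and Irs2 encode the docking proteins. Irs1 (ENSMUSG00000055980, chromosome 1, 82233101 to 82291416, minus strand) had 1.45, 1.96 and 4.08 CPM as lowest, median and highest in FLASH, 0.890, 1.54, 1.27, 0.406 and 0.390 CPM in CONV 2, 3, 5, 6 and 7, and 0.985, 2.46 and 4.32 CPM in control. CONV 6 and 7 were below every other library, and each pair of groups overlapped. Irs1 was higher in FLASH than in CONV by 1.33 ± 0.43 (2.52-fold, adjusted p = 0.0363), with 0.97 ± 0.30 under the offset (adjusted p = 0.0230). This call was lost without any 1 of 5 libraries, with adjusted p of 0.0711 without CONV 2, 0.0870 without CONV 6, 0.0971 without CONV 7, 0.0648 without FLASH 6 and 0.0818 without FLASH 7. Irs1 fell in CONV against control by 1.40 ± 0.44 (0.38-fold, adjusted p = 0.0308). That fall was smaller with the offset (-0.77 ± 0.30) and missed the threshold (adjusted p = 0.0656). It also missed it without control 2 (0.0798), control 4 (0.0519), control 5 (0.0595), CONV 2 (0.0656), CONV 6 (0.0905) or CONV 7 (0.0722). FLASH differed from control by -0.06 ± 0.38 (adjusted p = 0.910).

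Irs2, the docking protein that FOXO raises in fasted liver (ENSMUSG00000038894, chromosome 8, 10984681 to 11008458, minus strand), had the largest rise of the 10 in FLASH, against CONV and against control alike. It had 43.5, 59.9 and 121 CPM as lowest, median and highest in FLASH. CONV 2, 3, 5, 6 and 7 had 11.2, 19.1, 34.1, 10.7 and 8.94 CPM, and control had 13.5, 32.4 and 38.7 CPM. Every FLASH library exceeded every CONV and every control library, while CONV and control overlapped. Irs2 was higher in FLASH than in CONV by 2.09 ± 0.37 (4.25-fold, adjusted p = 0.00119) and higher than in control by 1.28 ± 0.33 (2.43-fold, adjusted p = 0.00535). With the offset the differences were 1.78 ± 0.24 (adjusted p = 0.000171) and 1.47 ± 0.23 (adjusted p = 4.7e-05), again with no overlap. Before the offset, non-overlap in that direction in FLASH against control held for 6.93% of all genes, and for 1 of the 10. Irs2 did not pass in CONV against control (-0.80 ± 0.36, adjusted p = 0.106). It passed when CONV 5, the highest CONV library, was left out (-1.23, adjusted p = 0.0184), and leaving out control 6 gave -0.95 (adjusted p = 0.0350).

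The transcription factors Foxo1 and Foxo3 are the effectors of the branch that AKT restrains. Foxo1 (ENSMUSG00000044167, chromosome 3, 52268336 to 52353221, plus strand) had 37.4, 46.8 and 90.3 CPM as lowest, median and highest in FLASH, 14.5, 24.2, 27.4, 10.6 and 16.0 CPM in CONV 2, 3, 5, 6 and 7, and 14.01, 36.9 and 51.1 CPM in control. FLASH and CONV did not overlap, while control spanned much of both. Foxo1 was higher in FLASH than in CONV by 1.63 ± 0.32 (3.09-fold, adjusted p = 0.00231), and by 1.30 ± 0.19 with the offset (adjusted p = 0.000227). Against control, FLASH was higher by 0.70 ± 0.29 without passing (adjusted p = 0.0630). That comparison passed with the offset (0.93 ± 0.17, adjusted p = 0.000345), and when control 2, FLASH 1 or FLASH 4 was left out, at adjusted p of 0.0350, 0.0483 and 0.0323. CONV was lower than control by 0.93 ± 0.32 on the log2 scale, 0.526-fold (adjusted p = 0.0436). With the offset the log2 fold change was -0.38 and did not pass (adjusted p = 0.149). The call was also lost when any of 9 libraries was left out, namely control 1 to 5, CONV 2, 6 and 7, and FLASH 9, with adjusted p from 0.0507 to 0.128.

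Foxo3 (ENSMUSG00000048756, chromosome 10, 42181841 to 42276755, minus strand) had 32.3, 72.8 and 91.3 CPM as lowest, median and highest in FLASH, 29.2, 47.7, 57.4, 24.2 and 32.0 CPM in CONV 2, 3, 5, 6 and 7, and 21.3, 54.8 and 64.1 CPM in control. The groups overlapped in every pair. Foxo3 was higher in FLASH than in CONV by 0.88 ± 0.29 (1.84-fold, adjusted p = 0.0373). Leaving out CONV 2, 6 or 7 or FLASH 5, 6, 7 or 9 took the adjusted p to between 0.0551 and 0.0951. Against control it did not pass for FLASH (0.52 ± 0.27, adjusted p = 0.132) or for CONV (-0.36 ± 0.29, adjusted p = 0.368). Without FLASH 1, FLASH passed against control (0.65, adjusted p = 0.0469). Under the offset Foxo3 had 48.7, 63.4 and 81.1 CPM in FLASH, 41.4, 42.8 and 54.5 CPM in CONV and 35.1, 39.5 and 45.9 CPM in control as lowest, median and highest. On that scale FLASH lay above all control libraries (0.71 ± 0.12, adjusted p = 8.8e-05) and was higher than CONV by 0.52 ± 0.12 (adjusted p = 0.00527). The offset also turned CONV against control to 0.19 (adjusted p = 0.277).

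Pik3ip1 encodes a membrane protein that binds and inhibits PI3K (ENSMUSG00000034614, chromosome 11, 3330401 to 3342971, plus strand). Its longest transcript, 2.57 kb, is the shortest of the 10. It had 2.82, 8.13 and 11.3 CPM as lowest, median and highest in FLASH, 5.03, 4.60, 4.39, 1.72 and 3.19 CPM in CONV 2, 3, 5, 6 and 7, and 3.72, 5.48 and 6.78 CPM in control. The 6 FLASH libraries other than FLASH 4 were above all CONV and control libraries, the lowest of them at 7.65 CPM. Pik3ip1 was higher in FLASH than in CONV by 1.09 ± 0.30 (2.12-fold, adjusted p = 0.0155) and by 1.15 ± 0.30 with the offset (adjusted p = 0.00977). It did not pass in FLASH against control (0.59 ± 0.27, adjusted p = 0.0971), and did so without FLASH 4 (0.78, adjusted p = 0.0109). Nor did it pass in CONV against control (-0.50 ± 0.30, adjusted p = 0.222).

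Fbxo32 encodes atrogin-1, a muscle ubiquitin ligase subunit that FOXO raises in fasting (ENSMUSG00000022358, chromosome 15, 58175879 to 58214932, minus strand). It had 10.8, 28.2 and 63.0 CPM as lowest, median and highest in FLASH, 11.4, 22.7, 17.8, 5.10 and 12.6 CPM in CONV 2, 3, 5, 6 and 7, and 8.72, 21.5 and 30.7 CPM in control. FLASH 7 stood apart at 63.0 CPM, the next library having 29.8, and the groups overlapped. It did not pass in any comparison: 0.98 ± 0.41 in FLASH against CONV (95% interval 0.11 to 1.84, adjusted p = 0.103), 0.38 ± 0.38 in FLASH against control (adjusted p = 0.461) and -0.59 ± 0.42 in CONV against control (adjusted p = 0.300). Without FLASH 4 it passed in FLASH against CONV (1.16, adjusted p = 0.0438). With the offset that difference was 0.77 ± 0.34 and did not pass (adjusted p = 0.104). Smooth muscle markers (10 genes) summed to 396 to 1220 CPM in FLASH, 170 to 1170 CPM in CONV and 1170 to 3540 CPM in control. Their part in the Fbxo32 values was not tested.

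Sesn3, which encodes a sestrin that restrains mTORC1, the growth-promoting kinase complex, is itself a FOXO target (ENSMUSG00000032009, chromosome 9, 14275067 to 14333101, plus strand). It was lower than in control after both dose rates. It had 13.0, 16.3 and 17.97 CPM as lowest, median and highest in FLASH, 14.9, 22.1, 23.4, 11.6 and 18.1 CPM in CONV 2, 3, 5, 6 and 7, and 15.4, 27.3 and 35.9 CPM in control. The FLASH libraries lay close together within the range of CONV and overlapped only the low end of control. Sesn3 fell in FLASH against control by 0.75 ± 0.18 on the log2 scale (0.593-fold, adjusted p = 0.00352). With the offset it fell by 0.60 ± 0.12 (adjusted p = 0.000641) with no overlap. Before the offset 6.86% of all genes were lower without overlap, and the share on the offset scale was not counted. In CONV against control Sesn3 fell by 0.57 ± 0.20 (0.674-fold, adjusted p = 0.0492). That call was lost with the offset (-0.12, adjusted p = 0.524) and when any of 14 of the 18 libraries was left out, with adjusted p up to 0.149 without CONV 6. FLASH against CONV differed by -0.19 ± 0.19 (95% interval -0.59 to 0.22, adjusted p = 0.539). With the offset Sesn3 was lower in FLASH than in CONV by 0.48 ± 0.13 (adjusted p = 0.0111), with no overlap between 12.7 to 17.7 CPM in FLASH and 18.2 to 22.9 CPM in CONV. Fibroblast markers (10 genes) summed to 189 to 347 CPM in FLASH, 112 to 376 CPM in CONV and 290 to 1190 CPM in control, and their part in the Sesn3 values was not tested.

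Ccng2 encodes cyclin G2, a FOXO target that slows the cell cycle (ENSMUSG00000029385, chromosome 5, 93267257 to 93276231, plus strand). It was the most abundant of the 10. It had 110, 168 and 253 CPM as lowest, median and highest in FLASH, 212, 141, 161, 314 and 226 CPM in CONV 2, 3, 5, 6 and 7, and 61.6, 125 and 250 CPM in control. The groups overlapped widely, and CONV 6 and control 6, lowest in their group for most of the other genes, were highest in their group for Ccng2. It did not pass in any comparison: -0.29 ± 0.28 in FLASH against CONV (95% interval -0.87 to 0.29, adjusted p = 0.496), 0.32 ± 0.27 in FLASH against control (adjusted p = 0.364) and 0.61 ± 0.29 in CONV against control (adjusted p = 0.125). Without control 6 it passed as higher in CONV against control (0.86, adjusted p = 0.0152). It also passed there without control 6, CONV 6 and FLASH 1 together.

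Within groups, the libraries at the ends of the length slope were often at the ends of the gene levels too. The library of lowest slope was the lowest of its group for 5 of the 10 genes in FLASH (FLASH 1), for 6 in CONV (CONV 6) and for 8 in control (control 6). The library of highest slope was the highest of its group for 6 genes in FLASH (FLASH 7), 6 in CONV (CONV 5) and 6 in control (control 2). With the offset, 6 of the 10 genes rose and 1 fell in FLASH against CONV, where 13.5% and 10.8% of all genes did. FLASH against control had 3 that rose (Irs2, Foxo1 and Foxo3) and 1 that fell, against 21% and 24.5% of all genes. CONV against control had 0 that rose and 1 that fell (Igf1r), against 11.3% and 14% of all genes. Before the offset, 0 of the 10 genes were apart in CONV against control, where 5.46% of all genes were higher and 4.95% lower without overlap. The share of all genes without overlap was not counted on the offset scale. The offset non-overlaps of Igf1r, Irs2, Foxo3 and Sesn3 therefore stand without such a share.

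**Figure D3:**
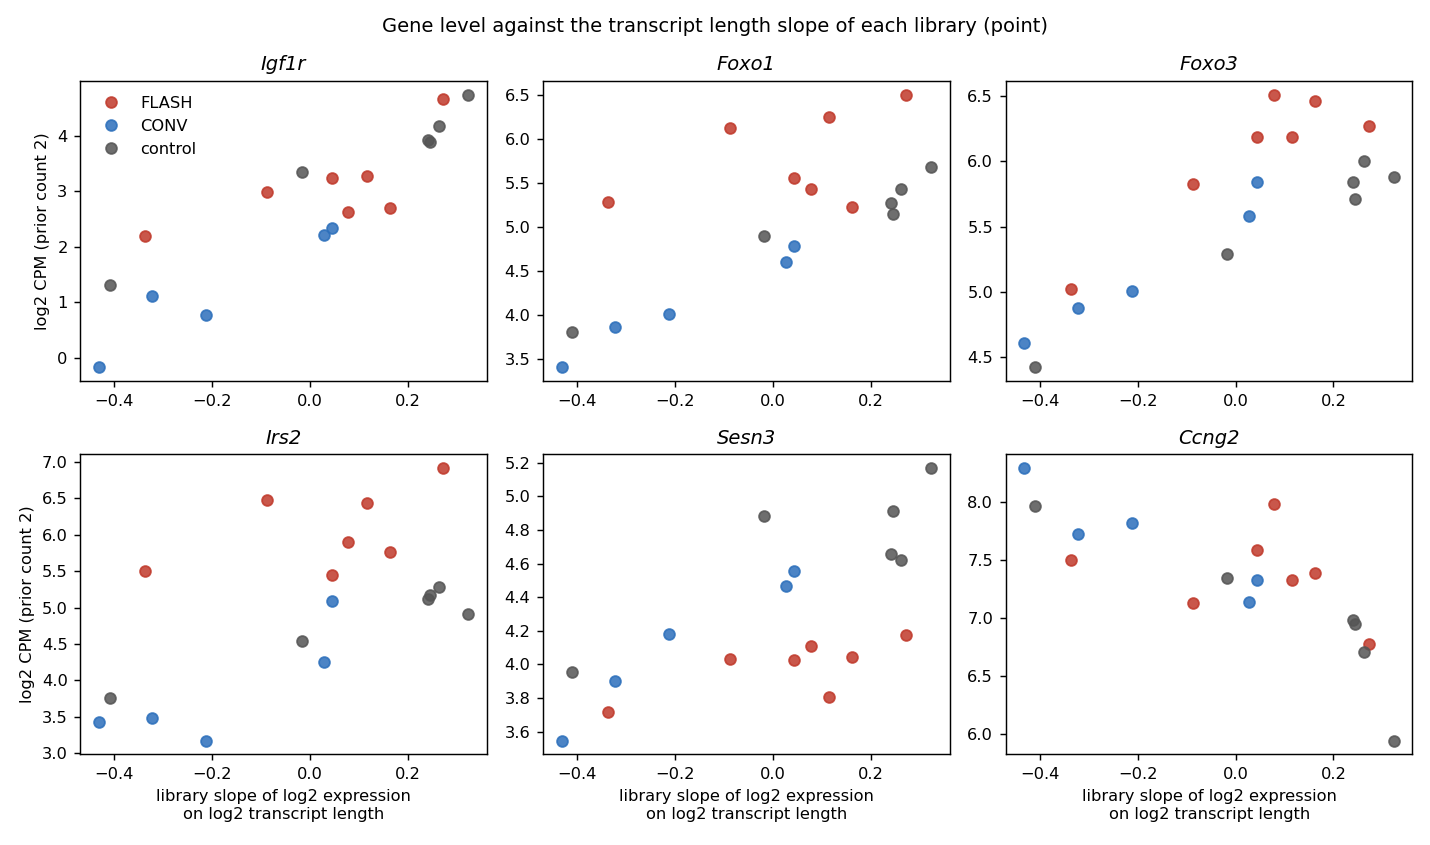
Log2 CPM (prior count 2) of Igf1r, Foxo1, Foxo3, Irs2, Sesn3 and Ccng2 against the slope of log2 expression on log2 transcript length in the same library, each point 1 library, coloured red for FLASH, blue for CONV and grey for control. The slopes span -0.34 to 0.27 in FLASH, -0.43 to 0.04 in CONV and -0.41 to 0.32 in control.

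Scaling also bears on direction. With library totals in place of TMM, the median log2 fold change over the whole table moved to -0.18 in FLASH against CONV, -0.44 in FLASH against control and -0.25 in CONV against control, where TMM gave -0.02, -0.07 and -0.04. The share of calls that were higher was 24.4% under library totals and 49.9% under TMM in FLASH against CONV, 17.4% and 44.3% in FLASH against control, and 24.2% and 46.0% in CONV against control. With library totals, 4 of the 10 genes were called higher in FLASH than in CONV, and Irs1 (1.15, adjusted p = 0.0820) and Foxo3 (0.70, adjusted p = 0.120) were not.

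The wider pathway was read from lists of ligands, receptors, kinases, brakes, mTOR regulators and FOXO targets, which do not hold the 10 genes. These lists were also chosen with earlier results of these data known. Their counts are to be read against the shares of all genes tested, which were 9.88% higher and 9.91% lower in FLASH against CONV, 16.7% and 21% in FLASH against control, and 10.2% and 12% in CONV against control. Of 10 listed ligand and binding protein genes, 8 passed the filter. In FLASH against CONV only Igfbp3 of the 8, the main circulating IGF carrier, rose (1.72 ± 0.37, adjusted p = 0.00388), and the median of the 8 was -0.28. Igfbp3 had 25.6, 68.5 and 133 CPM as lowest, median and highest in FLASH, 17.3, 23.6 and 41.9 CPM in CONV and 35.7, 51.8 and 102 CPM in control, with overlap in each pair. In FLASH against control 0 of the 8 rose and 3 fell (Igf2, Igfbp4 and Igfbp5), where 16.7% and 21% of all genes did, with Igfbp4 at -0.87 ± 0.23 and a median of -0.74. The Igf2 call was lost without any 1 of control 1, control 2, FLASH 1, FLASH 2, FLASH 4, FLASH 5 and FLASH 9, and the Igfbp5 call without control 1 or control 2. For CONV against control 0 rose and 1 fell, Igfbp3 at -1.17 ± 0.37 (adjusted p = 0.0297), with a median of -0.56. That call was lost without control 1, control 2, CONV 2, CONV 5 or CONV 6.

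Of 10 other receptor and adaptor genes tested, Gab1, a docking protein of several receptor kinases, rose in FLASH against CONV (0.79 ± 0.25, adjusted p = 0.0337) and in FLASH against control (0.86 ± 0.24, adjusted p = 0.00802). The first of these calls was lost without CONV 2, 6 or 7 or FLASH 5, 6 or 7. Insrr, the insulin receptor-related receptor that senses alkaline pH, fell in FLASH against control (-1.90 ± 0.47, adjusted p = 0.00376) and in CONV against control (-2.06 ± 0.53, adjusted p = 0.0110). Its levels were low, at 0.596 ± 0.44 CPM in FLASH, 0.528 ± 0.116 CPM in CONV and 2.21 ± 0.983 CPM in control (SD). In all 1 rose and 0 fell in FLASH against CONV (median 0.13; 9.88% and 9.91% of all genes), 2 rose and 2 fell in FLASH against control (median 0.07; 16.7% and 21% of all genes), and 0 rose and 1 fell in CONV against control (median -0.18; 10.2% and 12%), all near the shares of all genes.

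Of 12 genes of PI3K, AKT and the related SGK kinases, 2 rose in FLASH against CONV and 0 fell, with a median of 0.15, where 9.88% and 9.91% of all genes did. One was Pik3r1, the regulatory subunit of PI3K (0.90 ± 0.28, adjusted p = 0.0303), which also fell in CONV against control (-0.85 ± 0.29, adjusted p = 0.0412). Both Pik3r1 calls were lost without CONV 2, 6 or 7, the one against CONV also without FLASH 6 or 7, and the one against control also without control 1, 2, 4 or 5. The other was Sgk1, a kinase related to AKT and induced by glucocorticoids, at 290, 1657 and 2249 CPM as lowest, median and highest in FLASH, 92.8, 118 and 164 CPM in CONV and 41.2, 103 and 166 CPM in control. FLASH stood above both other groups in Sgk1, by 3.56 ± 0.47 against CONV (adjusted p = 0.000188) and by 3.80 ± 0.44 against control (adjusted p = 4.6e-06). In FLASH against control 3 of the 12 rose and 2 fell (median 0.09), and in CONV against control 0 rose and 2 fell (median -0.13). Pik3cd, a catalytic subunit of leukocytes, fell in CONV (-1.77 ± 0.28, adjusted p = 0.000413) and in FLASH (-1.21 ± 0.25, adjusted p = 0.00104) against control. T and B cell markers (10 genes) summed to 38.2 to 78.7 CPM in FLASH, 35.7 to 73.8 CPM in CONV and 99.0 to 261 CPM in control, and their part in the Pik3cd values was not tested.

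Among 10 genes that restrain PI3K and AKT, 1 rose and 1 fell in FLASH against CONV (median 0.02), as did 9.88% and 9.91% of all genes. Of the same 10, 4 rose and 1 fell in FLASH against control (median 0.10; 16.7% and 21% of all genes), and 1 rose and 2 fell in CONV against control (median 0.14). The phosphatase gene Inpp4b fell by 1.78 ± 0.24 on the log2 scale in FLASH against control (adjusted p = 1.9e-05) and by 1.35 ± 0.26 in CONV against control (adjusted p = 0.00164). Of 16 genes of mTOR control and the other sestrins, 5 rose and 0 fell in FLASH against CONV (median 0.46; 9.88% and 9.91% of all genes), 6 rose and 0 fell in FLASH against control (median 0.22; 16.7% and 21%), and 4 rose and 1 fell in CONV against control (median -0.01). Sesn2, a p53-induced sestrin, had 41.0 ± 6.36 CPM in FLASH, 38.8 ± 7.04 CPM in CONV and 9.66 ± 2.24 CPM in control (SD). It rose against control in FLASH (2.09 ± 0.17, adjusted p = 1.6e-07) and in CONV (2.01 ± 0.18, adjusted p = 7.5e-07). Sesn3 fell in both, but its call in CONV was lost with the offset (-0.12, adjusted p = 0.524). Sesn1 rose in FLASH against CONV (1.45 ± 0.35, adjusted p = 0.00802), at 328 ± 196 CPM in FLASH and 120 ± 20.7 CPM in CONV. Ddit4, a repressor of mTORC1 that glucocorticoids induce, rose in FLASH against CONV by 2.21 ± 0.52 (adjusted p = 0.00676). Its lowest, median and highest values were 39.6, 74.9 and 368 CPM in FLASH and 27.6, 33.4 and 44.2 CPM in CONV, with overlap.

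Other FOXO factors and targets included genes with large changes. Of 23 tested, 5 rose and 2 fell in FLASH against CONV (median 0.29), where 9.88% and 9.91% of all genes did. The 2 that fell were Sod2 (81.2 ± 15.8 CPM in FLASH and 114 ± 11.1 CPM in CONV, SD) and Prdx3 (53.1 ± 9.72 and 79.9 ± 16.4 CPM). Against control, 11 rose and 0 fell in FLASH (median 0.52; 16.7% and 21% of all genes), and 6 rose and 0 fell in CONV (median 0.26; 10.2% and 12%). Pck1, the gluconeogenic enzyme PEPCK, had 684, 1639 and 2777 CPM as lowest, median and highest in FLASH, 35.2, 107 and 152 CPM in CONV and 29.3, 50.8 and 61.5 CPM in control. FLASH was far above both other groups without overlap, by 4.05 ± 0.40 against CONV (adjusted p = 4.3e-05) and by 5.26 ± 0.39 against control (adjusted p = 5.5e-08). Pdk4, which blocks pyruvate oxidation, was higher in FLASH than in CONV by 4.12 ± 0.47 (adjusted p = 0.000102), and G6pc, glucose-6-phosphatase, by 2.36 ± 0.37 (adjusted p = 0.000614). Trim63, which encodes the muscle ubiquitin ligase MuRF1, rose in CONV against control (1.45 ± 0.44, adjusted p = 0.0266), a call lost with the offset (1.12, adjusted p = 0.0545) and without control 1, 2 or 5 or CONV 2 or 6. Trim63 levels were low, at 0.636 ± 0.316 CPM in CONV and 0.231 ± 0.164 CPM in control (SD). Several of these genes, among them Pck1 and Pdk4, are also raised by glucocorticoids and by fatty acids. Of 10 glucocorticoid-induced genes, which include Sgk1 and Ddit4, 9 rose and 0 fell in FLASH against CONV (median 2.21), against 9.88% and 9.91% of all genes. In FLASH against control 9 rose and 0 fell (median 2.49), against 16.7% and 21% of all genes. In CONV against control 3 rose and 0 fell (median 0.56), against 10.2% and 12%. This list too was chosen with earlier results of these data known. The summed level of these glucocorticoid-induced genes was 840 to 3890 CPM in FLASH, 328 to 534 CPM in CONV and 160 to 367 CPM in control. Their part in the values of the 10 genes was not tested.

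**Figure D4:**
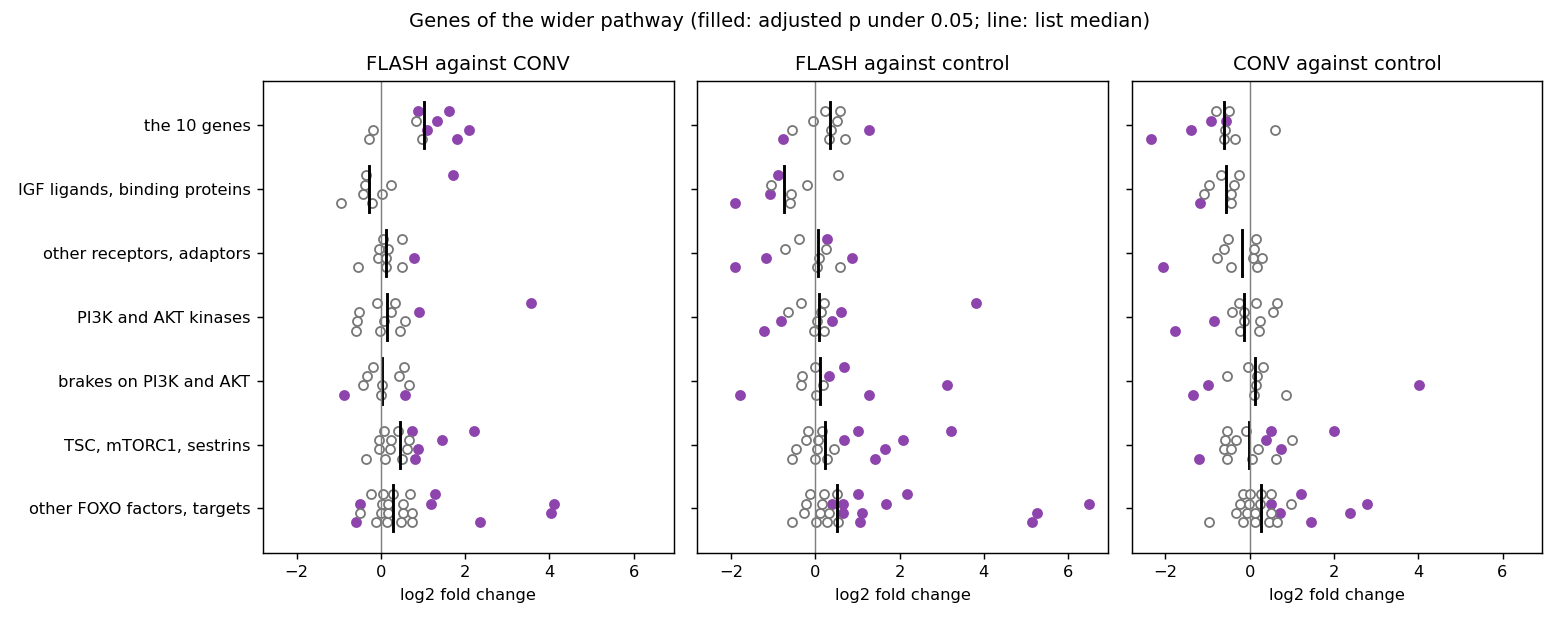
Log2 fold changes of the tested genes of each pathway list in FLASH against CONV, FLASH against control and CONV against control, each point 1 gene, filled where the adjusted p was under 0.05, and each line the list median. In FLASH against CONV the median is 1.03 for the 10 genes and between -0.28 and 0.46 for the other lists.

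The 10 genes were compared in pattern by the root mean square difference of their standardised log2 CPM over the 18 libraries, in SD units, where 0 means the same pattern. The closest pairs were Irs2 and Foxo1 (0.328), Insr and Foxo3 (0.353), and Igf1r and Irs1 (0.371). The farthest pair was Igf1r and Ccng2 (1.87). Outside the 10, the genes most like Irs2 were Il17rd (0.23), Erbin (0.28) and Rap1gap2 (0.28). Those most like Foxo1 were Foxn3 (0.18), Sppl3 (0.20) and Atp2b1 (0.21), and Tnks (0.15) was closest to Foxo3. Arid5b (0.20) was closest to Igf1r, Smg6 (0.25) to Insr and Sfrp1 (0.30) to Sesn3. On the offset values, Il17rd (0.30) was still closest to Irs2, Arid5b (0.29) to Igf1r and Nkiras1 (0.31) to Ccng2. The closest gene to Foxo1 was then Nr1h4 (0.19), that to Foxo3 was Gucy2c (0.28), and that to Sesn3 was Ms4a7 (0.52).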

How the data were processed

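RNA of whole jejunum (250 ng) was sequenced from 7 FLASH, 5 CONV and 6 control libraries as single-end reads of 100 bp, per the labels' protocols. Per the submitters' processing notes, the authors used STAR, Salmon, edgeR 3.40.2, limma 3.54.2 and mm10. Whether counting used strand is not given in the sources used here. Irs1, Irs2, Foxo1, Pik3ip1 and Fbxo32 each overlap a gene on the opposite strand, and the highest count of any of these partners was 14. The authors' deposited table holds estimated counts (expected counts, not normalized) for 54532 genes. Of its values 9.79% were not whole, and all were rounded. The authors' deposited log2 table held 19193 genes and equals log2 of the count, with a small number added first, shifted by 1 constant per library.

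Genes were matched by symbol to GENCODE vM21. The test was edgeR 4.0.16 (R 4.3.3) quasi-likelihood with all 18 libraries in 1 fit, the filterByExpr filter and TMM factors. P-values of all 16257 genes that passed were adjusted by Benjamini-Hochberg and called under 0.05. Errors of log2 fold changes are the absolute change over the square root of F. The offset was a spline with 4 degrees of freedom each for length and GC content per library. Slopes were read where a protein-coding gene's log2 CPM averaged over 3 (prior count 2). Likeness used genes with a mean of at least 5 CPM. Named were all 10 genes in every comparison, up to 4 genes with the smallest p of each wider list per comparison, Cdkn1a and Phlda3. Sod2 and Prdx3 were named besides, as the genes of their list that fell in FLASH against CONV. The genes and lists were chosen with earlier results of these data known.

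Alternatives were library totals or DESeq2 size factors for scaling, TMM computed without the top 50 genes, looser (1 count in all) and stricter (mean of 1 CPM) filters, DESeq2 1.42.0, limma-voom and limma-trend (limma 3.58.1), fits of only the groups compared, a replicate block, the offset, a log2 fold change over 1, leaving out 3 libraries together and leaving out each library. The slope as a covariate and the offset values per library were added after seeing the data. The scripts were tested on simulated data. Libraries were checked for duplicates, and none was found (lowest chi-square over degrees of freedom 24.89). Promoter windows are from RefSeq (GRCm38.p6). Figures used matplotlib 3.10.9 under Python 3.11.15.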

Additional observations from a re-analysis of the deposited data

Results flagged for a closer look

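In the 30 sets of values checked (10 genes in 3 groups), 3 held a library that stood apart on the CPM scale. The rule flags about 1 in 20 sets by chance if values are normally distributed. It was applied to CPM, which need not be so distributed, and not to log2 CPM. FLASH 7 had 62.99 CPM of Fbxo32, the next highest FLASH library having 29.82 CPM. FLASH 7 also had 25.21 CPM of Igf1r, against 9.594 CPM in the next FLASH library. FLASH 4 had 2.819 CPM of Pik3ip1, below the next lowest FLASH library at 7.653 CPM.

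The responses to FLASH and to CONV, each against the same control libraries, differed for 6 of the 10 genes. This is the edgeR test of FLASH against CONV already given above, since control cancels in the difference. By that test 9.88% of all genes were higher and 9.91% lower. The difference in log2 fold change was 2.0862 for Irs2, 1.8018 for Igf1r, 1.6272 for Foxo1, 1.332 for Irs1, 1.0863 for Pik3ip1 and 0.8797 for Foxo3.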

How the results depend on the processing

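In FLASH against CONV, Irs2, Foxo1 and Pik3ip1 kept direction and call under all 14 alternatives and without any 1 library. The count of the 10 genes higher was 6. It was 3 with the replicate block, 4 with library totals, and 5 with at least 1 count or a log2 fold change over 1. It was 7 without control 6, CONV 6 and FLASH 1 together, and 8 with DESeq2. The count lower was 0, and 1 with the offset or the slope covariate. Leaving out 1 library gave 3 to 7 higher (3 without CONV 2, CONV 6, CONV 7 or FLASH 7) and 0 to 0 lower. Over all genes 3217 were called, 1569 with the block, 5217 with the covariate, 1347 with a log2 fold change over 1, and 2171 to 3993 without 1 library. For FLASH against control the 1 higher became 2 with DESeq2 size factors, 3 with DESeq2, the offset or without control 6, CONV 6 and FLASH 1 together, 4 with the covariate, and 1 to 3 without 1 library; the 1 lower became 0 with a log2 fold change over 1 and stayed at 1 to 1 without 1 library. Of 6135 genes called, 3198 were left with a log2 fold change over 1, and 5074 to 7164 were called without 1 library. In CONV against control the 4 lower became 2 with at least 1 count, limma-voom, limma-trend, the block or a log2 fold change over 1, and 1 with only the groups compared, the offset or the covariate. Without 1 library 1 to 5 were lower and 0 to 1 higher, and 1 was higher without those 3 together. Of 3615 genes called, 1970 were left with a log2 fold change over 1, and leaving out 1 library gave 1869 (without CONV 6) to 6493 (without control 6). Signs turned for genes that had not passed, and for Grb2. For CONV they were Insr (0.14, covariate), Foxo3 (0.19, offset; 0.30, covariate) and Shc1 (-0.0486, library totals). Against control, library totals turned FLASH values of Insr (-0.14), Ccng2 (-0.034) and Grb2 (-0.0903), and Irs1 became 0.028 with limma-voom, 0.0664 with limma-trend, 0.0082 with the block, 0.20 with the offset and 0.22 with the covariate, and -0.27 to 0.23 without 1 library. In FLASH against CONV the covariate turned Ccng2 (0.12) and Igf2r (-0.0791), and the offset Igf2r (-0.0172). The cause was not tested. Over the named genes, of the settings tried 3383 values kept direction and call, 208 lost the call, 69 gained it and 19 turned. Same-numbered libraries did not pair: correlations of their deviations ran from -0.27 to 0.606, and the own number was the best match in 2 of 13 pairs. Foxo1 lost its CONV against control call in 8 of the 14 alternatives, Sesn3 in 7 and Irs1 in 4. The lowest estimated count of a library was 9 for Irs1 and 18 for Igf1r.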
